A study of Mus musculus with 7 samples.

Results

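A set of 10 genes of the red cell lineage, chosen by name, was followed across RNA sequencing libraries of mouse blood-forming cells: Gata1, Klf1, Hemgn, Tfrc, Car1, Car2, Blvrb, Sptb, Ank1 and Alas2. Their mouse gene names were looked up in the deposited results table, and 9 of the 10 were among its 16760 genes. Alas2, the erythroid enzyme that starts heme synthesis, was not analysed here. All samples were CD150 neg cells of strain C57/B6 with the cell type HSC (hematopoietic stem cell) in the labels. Of the 7, 4 had the genotype WT and 3 the genotype 5G2del, a deletion in band 5G2 of mouse chromosome 5, a region that corresponds to 7q22 in humans. Loss of 7q22 material recurs in myeloid malignancies, and the mouse deletion models it. The labels used here give neither the extent and zygosity of the deletion nor the age of the mice and the other markers of the sort. The labels do not say that samples of a group came from separate animals, so p-values measure only the spread between these samples, which may be technical.

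Red cells are made from stem cells through megakaryocyte and erythroid progenitors. In that course the transcription factor GATA1 binds GATA motifs in erythroid genes, and the factor KLF1, itself a GATA1 target, binds CACCC boxes in globin, heme and membrane genes. Hemogen, the product of Hemgn, is a nuclear protein of stem and erythroid cells that is also a GATA1 target. Genes for iron uptake and carbonic anhydrases are switched on during erythroid commitment, and the spectrin and ankyrin skeleton that gives the red cell its shape is assembled late. Stem cells as a class make little of the late proteins, so their transcripts in a sorted stem or progenitor fraction are usually scarce.

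Promoter sequences were available for 6 of the 9 measured genes, from RefSeq on build GRCm38.p6, each with 250 bases before and 50 bases after the start of transcription. Those of the 3 regulators and of Sptb, the only measured late gene with a sequence, are shown. Motif matches on either strand are in capitals and the rest is in lower case, written 5′ to 3′ on the strand of the gene. The motifs searched were AGATAA and TGATAA for GATA factors and CCNCNCCC for the CACCC box. On the minus strand the GATA motifs read TTATCT and TTATCA, and the CACCC box appears as a G-rich run. The Gata1 window lies at chrX:7967861-7968160 on the minus strand, that of Klf1 at chr8:84901732-84902031 on the plus strand, that of Hemgn at chr4:46404134-46404433 on the minus strand and that of Sptb at chr12:76710498-76710797 on the minus strand.
Gata1: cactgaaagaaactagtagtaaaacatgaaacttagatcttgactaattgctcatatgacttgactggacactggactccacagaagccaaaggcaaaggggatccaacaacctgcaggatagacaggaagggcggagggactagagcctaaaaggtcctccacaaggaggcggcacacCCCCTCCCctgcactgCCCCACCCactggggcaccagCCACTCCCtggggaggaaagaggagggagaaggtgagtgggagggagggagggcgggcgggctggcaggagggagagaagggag
Klf1: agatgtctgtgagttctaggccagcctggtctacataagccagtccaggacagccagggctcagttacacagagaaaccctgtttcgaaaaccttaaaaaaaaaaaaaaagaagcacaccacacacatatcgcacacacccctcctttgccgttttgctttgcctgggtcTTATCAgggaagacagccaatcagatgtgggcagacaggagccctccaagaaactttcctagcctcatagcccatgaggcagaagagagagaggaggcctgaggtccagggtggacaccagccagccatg
Hemgn: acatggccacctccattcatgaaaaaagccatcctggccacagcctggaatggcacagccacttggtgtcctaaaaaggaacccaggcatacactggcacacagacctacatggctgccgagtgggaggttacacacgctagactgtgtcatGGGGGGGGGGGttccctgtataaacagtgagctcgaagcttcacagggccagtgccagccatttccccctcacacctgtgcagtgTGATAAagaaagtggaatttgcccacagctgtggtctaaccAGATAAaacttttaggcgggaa
Sptb: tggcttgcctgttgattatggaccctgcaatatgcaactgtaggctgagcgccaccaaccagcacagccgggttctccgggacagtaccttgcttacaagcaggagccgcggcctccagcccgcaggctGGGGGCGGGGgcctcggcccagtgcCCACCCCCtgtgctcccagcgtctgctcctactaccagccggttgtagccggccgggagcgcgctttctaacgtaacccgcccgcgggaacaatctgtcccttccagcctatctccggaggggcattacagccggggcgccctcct

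The Gata1 window held 3 CACCC matches and no GATA match. Klf1 had 1 GATA match, which begins 80 bases before the start, and no CACCC match. Hemgn had 2 GATA matches, which begin 13 bases before and 28 bases after the start, and a run of G that counts as 4 overlapping CACCC matches. In Sptb there were 3 CACCC matches, of which 2 overlap, and no GATA match. The windows of Tfrc and Blvrb, which have 2 listed starts each, held no GATA match. Among all 32851 promoter windows of the same length, 18.6% held either GATA motif, 49.5% held CCNCNCCC and 5.73% held both kinds. Among the 6 genes with a window, Hemgn alone held both. A match describes these letters, and no binding was measured.

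Expression is given as log2 CPM, the log2 of the counts of a gene scaled to the size of its library. The libraries are called WT-A to WT-D and 5G2del-A to 5G2del-C, because the table names the group of each library and not which sample it is. Within each group the letters follow the order of the columns, which is that of their serial numbers. By these numbers WT-A and 5G2del-A are adjacent, as are WT-B and 5G2del-B. What the serial numbers stand for is not stated, and letters were not used to pair libraries between the groups. The library sizes behind the CPM, recovered from its values, ran from 34865420 to 55716549, at which 3 counts equal 0.0538 to 0.0860 CPM. They are not plain sums of the expected counts, which ran from 37930174 to 52194274. The size was 41220903 against a sum of 47664360 in 5G2del-C, and 34865420 against 42038974 in WT-C. In the other libraries the sum was the smaller. A smaller size gives a higher CPM for the same counts. Stem cell and multipotent progenitor markers (12 of 12 measured) summed to between 1864 and 2004 CPM in 5G2del and between 1794 and 2162 CPM in WT, and Kit, the stem cell factor receptor, lay between 7.98 and 8.23 log2 CPM throughout. Slamf1, which encodes CD150, the marker of the sort, was low in both groups but did not overlap between them. It stood at 0.40, 0.63 and 0.65 log2 CPM in 5G2del-A, -B and -C (55 to 66 counts) and at -0.29, -1.62, -2.22 and -0.26 in WT-A to WT-D (7 to 45 counts), with a log2 fold change of 1.66 ± 0.75 (SE, limma adjusted p = 0.989). Cux1, a gene of the 7q22 region, stood at 7.06, 6.80 and 8.01 log2 CPM in 5G2del-A, -B and -C. In WT-A to WT-D it was 8.59, 8.44, 8.17 and 8.43. The groups did not overlap, but 5G2del-C was close to WT-C. Libraries 5G2del-A and WT-A stood apart in neutrophil markers (10 of 12 measured). These summed to 4640 CPM in 5G2del-A and 1482 CPM in WT-A, against 117.7 to 173.6 CPM in the other 5. WT-B stood apart in another way. It had no count for 1104 genes, where the other 6 libraries lacked 83 to 492, and its array quality weight of 0.341 was the lowest.

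No gene of the 9 passed the test between the groups. In limma-trend over all 16760 genes, 0 genes (0.00%) reached a Benjamini-Hochberg adjusted p under 0.05, and the lowest adjusted p was 0.151. An unadjusted p under 0.05 was reached by 656 genes (3.91%), of which 281 were higher and 375 lower in 5G2del, and by 0 of the 9. The authors' deposited table likewise had 0 genes under 0.05 after adjustment, and 625 at the unadjusted level. The ranges of the groups did not overlap for 956 genes (5.70%) and for 0 of the 9. At these background shares, a count of 0 among 9 genes does not set them apart from the table. Group means were lower in 5G2del for 7 of the 9 and higher for Hemgn and Car2. Over all 16760 genes, 7835 were lower and 8925 higher. The median log2 fold change of the 9 was -0.26, against 0.03 over all genes. Most of the 9 genes, Hemgn and Car2 excepted, differed widely between libraries of the same genotype.

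**Figure D1:**
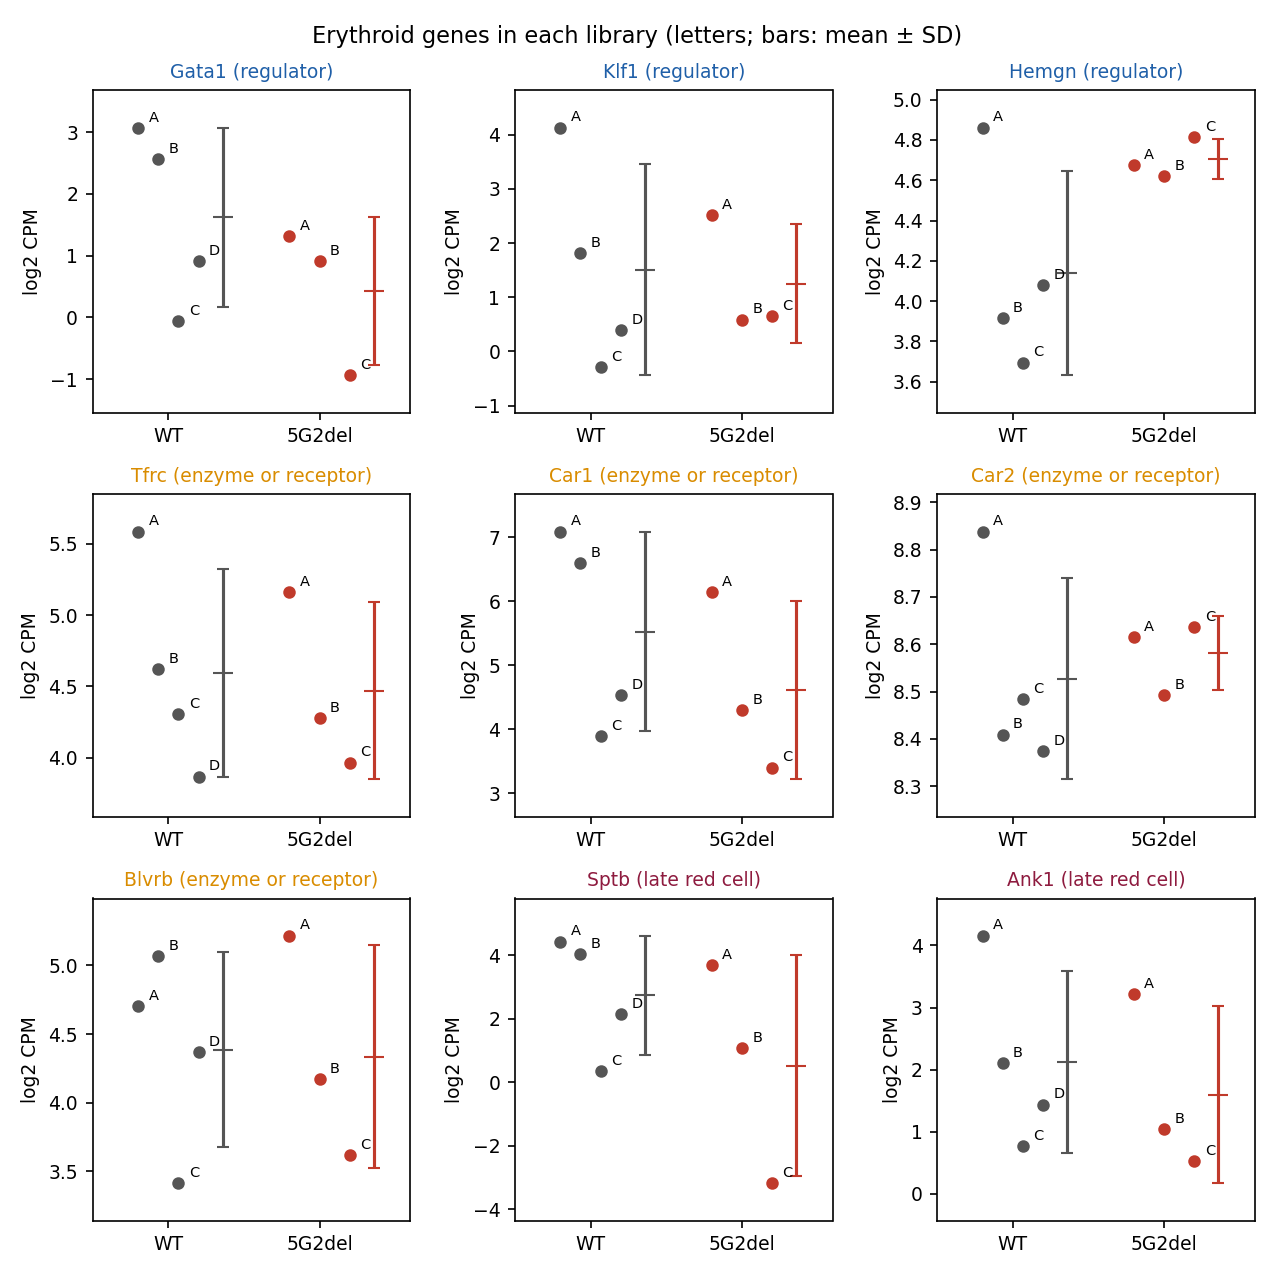
Level of the 9 measured genes in each library (y axis, log2 CPM, with its own scale in each panel) for WT (grey) and 5G2del (red). Each point is 1 library with its letter, and bars give the mean and SD of 4 WT and 3 5G2del libraries. The groups overlap in every panel, and WT-A is the highest point in 8 of the 9.

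Gata1 encodes the master transcription factor of red cells and megakaryocytes. In 5G2del its level was 1.31, 0.91 and -0.94 log2 CPM in libraries A, B and C, from 104, 80 and 21 counts. In WT it was 3.07, 2.57, -0.06 and 0.92 log2 CPM in libraries A to D, from 467, 245, 33 and 91 counts. WT-A and WT-B were above all other libraries, 5G2del-C was lowest, and WT-C was below 5G2del-A and 5G2del-B. The mean of the 3 5G2del libraries was 0.43 ± 1.20 (SD, n = 3) and that of WT 1.62 ± 1.45 (SD, n = 4). The log2 fold change was -1.20 with a standard error of 0.82 and a 95% confidence interval from -2.99 to 0.60 (limma adjusted p = 0.989). Even the lowest level was well above 3 counts. The 21 counts of 5G2del-C have an exact 95% Poisson interval of 13.0 to 32.1, which covers counting error only. The gene spans chrX:7959260-7978071 on mm10.

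Klf1 encodes the erythroid Kruppel-like factor, which acts with GATA1 on late red cell genes. It stood at 2.52, 0.59 and 0.65 log2 CPM in 5G2del-A, -B and -C, from 241, 64 and 64 counts. The WT libraries A to D had 4.13, 1.81, -0.29 and 0.39 log2 CPM, from 974, 145, 28 and 63 counts. Both the highest and the lowest library were WT, and the 3 5G2del libraries lay between them. The mean of the 3 5G2del libraries was 1.25 ± 1.10 (SD, n = 3) and that of WT 1.51 ± 1.95 (SD, n = 4). The difference of -0.26 ± 0.94 (log2 fold change ± SE, limma adjusted p = 0.990) was far smaller than the spread within either group, with an interval from -2.33 to 1.81. It turned to 0.62 without WT-A. Klf1 spans chr8:84901928-84905291.

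Hemgn had the higher mean in 5G2del. Its level was 4.68, 4.62 and 4.81 log2 CPM in 5G2del-A, -B and -C, from 1075, 1056 and 1159 counts. The WT values for libraries A to D were 4.86, 3.92, 3.70 and 4.08 log2 CPM, from 1619, 626, 451 and 819 counts. All 3 5G2del libraries were above WT-B, WT-C and WT-D, and WT-A alone was above them. The mean of the 3 5G2del libraries was 4.70 ± 0.10 (SD, n = 3) and that of WT 4.14 ± 0.51 (SD, n = 4). The log2 fold change of 0.57 ± 0.27 (SE) had an interval from -0.03 to 1.16 and did not pass (limma adjusted p = 0.989). Without WT-A it was 0.81 (limma adjusted p = 0.975), and without 5G2del-A and WT-A it was 0.82 (limma adjusted p = 0.998). In both cases the unadjusted p was under 0.05. Hemgn spans chr4:46393989-46413506, and it was the sole regulator of the 3 with a higher mean in 5G2del.

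The next 4 genes encode proteins that erythroid progenitors already use. Tfrc, the transferrin receptor through which cells take up iron, stood at 5.16, 4.28 and 3.96 log2 CPM in 5G2del-A, -B and -C. In WT-A to WT-D it was 5.59, 4.62, 4.31 and 3.87 log2 CPM. Library A was the highest of each group, and WT-D was the lowest of all 7. The means were 4.47 ± 0.62 (SD, n = 3) and 4.60 ± 0.73 (SD, n = 4), and the log2 fold change was -0.13 ± 0.39 (SE, limma adjusted p = 0.990, interval -0.99 to 0.74). Other dividing cells carry transferrin receptor too. It spans chr16:32608920-32632794.

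Car1 and Car2 encode 2 cytosolic carbonic anhydrases, enzymes that interconvert carbon dioxide and bicarbonate, and lie close together on chromosome 3. Car1 is the form of erythroid progenitors and red cells, while Car2 is also made by osteoclasts, kidney and many other cells. Car1 stood at 6.14, 4.29 and 3.40 log2 CPM in 5G2del-A, -B and -C, from 2960, 840 and 434 counts. In WT-A to WT-D it was 7.08, 6.59, 3.89 and 4.53 log2 CPM, from 7557, 3996, 516 and 1123 counts. WT-A, WT-B and 5G2del-A were well above the other 4 libraries. WT had a mean of 5.52 ± 1.55 (SD, n = 4) and 5G2del one of 4.61 ± 1.40 (SD, n = 3). Their log2 fold change was -0.92 ± 0.78 (SE, limma adjusted p = 0.989, interval -2.63 to 0.80).

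Car2 was nearly level. It stood at 8.62, 8.49 and 8.64 log2 CPM in 5G2del-A, -B and -C and at 8.84, 8.41, 8.48 and 8.38 in WT-A to WT-D. The 7 libraries lay within 0.46 log2 units, and the interval of the log2 fold change, -0.29 to 0.40 around 0.06 ± 0.16 (SE, limma adjusted p = 0.990), was the narrowest of the 9 genes. The difference Car1 minus Car2 was -2.48, -4.20 and -5.24 in 5G2del-A, -B and -C and -1.75, -1.82, -4.60 and -3.84 in WT-A to WT-D. The pair thus ranged over 3.49 log2 units against each other, with Car2 itself ranging over 0.46. Car1 spans chr3:14766216-14808368 and Car2 chr3:14886273-14900770.

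Blvrb encodes biliverdin reductase B, also called flavin reductase, an abundant enzyme of red cells. Its level was 5.22, 4.17 and 3.62 log2 CPM in 5G2del-A, -B and -C and 4.70, 5.07, 3.41 and 4.37 in WT-A to WT-D. It was the only gene of the 9 for which 5G2del-A, not WT-A, was the highest library. The log2 fold change was -0.05 ± 0.43 (SE, limma adjusted p = 0.993), with an interval from -0.99 to 0.88, between means of 4.33 ± 0.81 (SD, n = 3) and 4.39 ± 0.71 (SD, n = 4). Blvrb spans chr7:27447978-27466144.

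Among the late genes, Sptb encodes the beta spectrin of red cells, a main part of the membrane skeleton. Its level was 3.68, 1.08 and -3.20 log2 CPM in 5G2del-A, -B and -C, from 538, 90 and 4 counts. In WT-A to WT-D it was 4.43, 4.03, 0.35 and 2.13 log2 CPM, from 1198, 676, 44 and 212 counts. 5G2del-C was far below every other library, while 5G2del-A was above WT-C and WT-D. The 4 counts of 5G2del-C have an exact 95% Poisson interval of 1.09 to 10.2, so this lowest level is imprecise. The mean of the 3 5G2del libraries was 0.52 ± 3.47 (SD, n = 3) and that of WT 2.73 ± 1.88 (SD, n = 4). The log2 fold change of -2.22 ± 1.40 (SE) was the lowest of the 9 but had an interval from -5.28 to 0.85 (limma adjusted p = 0.989). It was -0.36 without 5G2del-C, -3.79 without 5G2del-A (limma adjusted p = 0.986) and -3.23 without 5G2del-A and WT-A (limma adjusted p = 0.998), with an unadjusted p under 0.05 in the last 2 cases. The gene spans chr12:76580488-76710547, and its exons overlap those of Plekhg3 on the opposite strand. The sources used here do not say whether the counting used strand. Plekhg3 stood at 3.12, 2.61 and 2.66 log2 CPM in 5G2del-A, -B and -C and at 3.10, 0.31, 2.79 and 2.73 in WT-A to WT-D, an order of libraries unlike that of Sptb.

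Ank1 encodes ankyrin 1, the adaptor that ties spectrin to the anion exchanger in the membrane. Its level was 3.22, 1.04 and 0.53 log2 CPM in 5G2del-A, -B and -C, from 392, 87.8 and 59 counts. In WT-A to WT-D it was 4.16, 2.11, 0.77 and 1.44 log2 CPM, from 994, 178, 59 and 131 counts. WT-A and 5G2del-A were the 2 highest libraries, and the lowest of each group were close together. WT had a mean of 2.12 ± 1.47 (SD, n = 4) and 5G2del one of 1.60 ± 1.43 (SD, n = 3). The log2 fold change was -0.52 ± 0.82 (SE, limma adjusted p = 0.989, interval -2.32 to 1.28). It spans chr8:22974844-23150497, and an antisense gene overlaps its exons. As these are bulk samples, fewer cells of a type and less RNA per cell cannot be told apart for any of these genes.

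**Figure D2:**
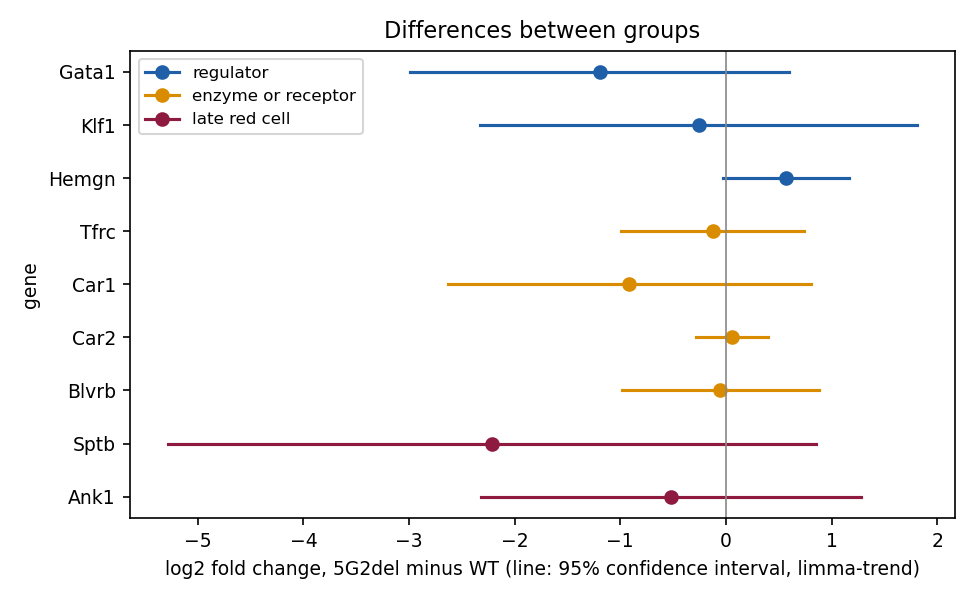
Log2 fold change of each gene, 5G2del minus WT (x axis), with its 95% confidence interval from limma-trend over 3 5G2del and 4 WT libraries. Every interval includes 0, and the widths run from that of Car2 (-0.29 to 0.40) to that of Sptb (-5.28 to 0.85).

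For 4 of the genes the sign of the difference hung on single libraries. Without WT-A the log2 fold change was 0.62 for Klf1, 0.20 for Tfrc, 0.05 for Blvrb and 0.16 for Ank1, all higher in 5G2del in place of lower. Without 5G2del-C it was 0.04 for Klf1, 0.12 for Tfrc, 0.31 for Blvrb and 0.01 for Ank1. Klf1 and Blvrb also turned without 5G2del-B (0.07 and 0.03), and Blvrb without WT-B (0.17). The median of the 9 genes was 0.16 without WT-A and 0.03 without 5G2del-C, and -0.89 without 5G2del-A. Gata1, Car1 and Sptb stayed lower in 5G2del, and Hemgn and Car2 higher, whichever single library was left out. Without 5G2del-A and WT-A together, the log2 fold change was -1.16 for Gata1, -0.02 for Klf1, -0.14 for Tfrc, -1.16 for Car1, 0.14 for Car2, -0.39 for Blvrb and -0.65 for Ank1, and the median of the 9 was -0.39.

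Across the 7 libraries the genes covered very different ranges. From WT-A down to 5G2del-C, Sptb ranged over 7.62 log2 units, a 197-fold difference. Klf1 ranged 21.4-fold, Gata1 16.1-fold, Car1 12.9-fold and Ank1 12.4-fold. Blvrb and Tfrc ranged over 1.81 and 1.72 log2 units, while Hemgn ranged 2.25-fold and Car2 1.38-fold. The regulators and the enzymes were thus found at both ends of this order.

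The spread of most of the 9 was large for their level. The residual SD within groups was 1.49 for Car1, against a median of 0.27 for the 2379 genes within 0.5 log2 CPM of its mean, and 99.9% of those genes had a smaller one. For Sptb it was 2.63 against 0.62, for Klf1 1.67 against 0.70, for Ank1 1.45 against 0.60 and for Gata1 1.36 against 0.75. Blvrb (0.75 against 0.32) and Tfrc (0.69 against 0.30) were also above the genes of their level. Hemgn, at 0.40 against 0.32, was close to the genes of its level, and Car2, at 0.17 against 0.27, was below them. Gata1, Klf1, Sptb and Ank1 had under 100 counts in at least 2 libraries each, whereas the lowest library of Car1 held 434 counts.

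Within 5G2del, library A was above library C by 4.76-fold for Gata1, 3.67-fold for Klf1, 6.68-fold for Car1, 6.46-fold for Ank1 and 117-fold for Sptb. Within WT, library A was above library C by 8.73-fold for Gata1, 21.4-fold for Klf1, 9.16-fold for Car1, 10.5-fold for Ank1 and 16.9-fold for Sptb. For Tfrc the same ratios were 2.30 and 2.43, and for Blvrb 3.03 and 2.45. For Hemgn the ratio of A to C was 0.909 in 5G2del and 2.25 in WT, so its step was in WT alone. For Car2 the ratios were 0.985 and 1.28.

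The same libraries were high again and again. WT-A was the highest of all 7 in 8 of the 9 genes, and WT-C was the lowest WT library in 7, with WT-D lowest for Tfrc and Car2. 5G2del-A was the highest of its group in 7 genes, and 5G2del-C the lowest in 6. WT-A, WT-B and 5G2del-A held the 3 highest values for Gata1, Klf1, Tfrc, Car1, Blvrb, Sptb and Ank1, that is 7 of the 9, against 3.86% of all genes. This trio was picked after the values were seen, so the count is a description with no test. For Hemgn and Car2 the order differed, with WT-A first and the 3 5G2del libraries next.

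**Figure D3:**
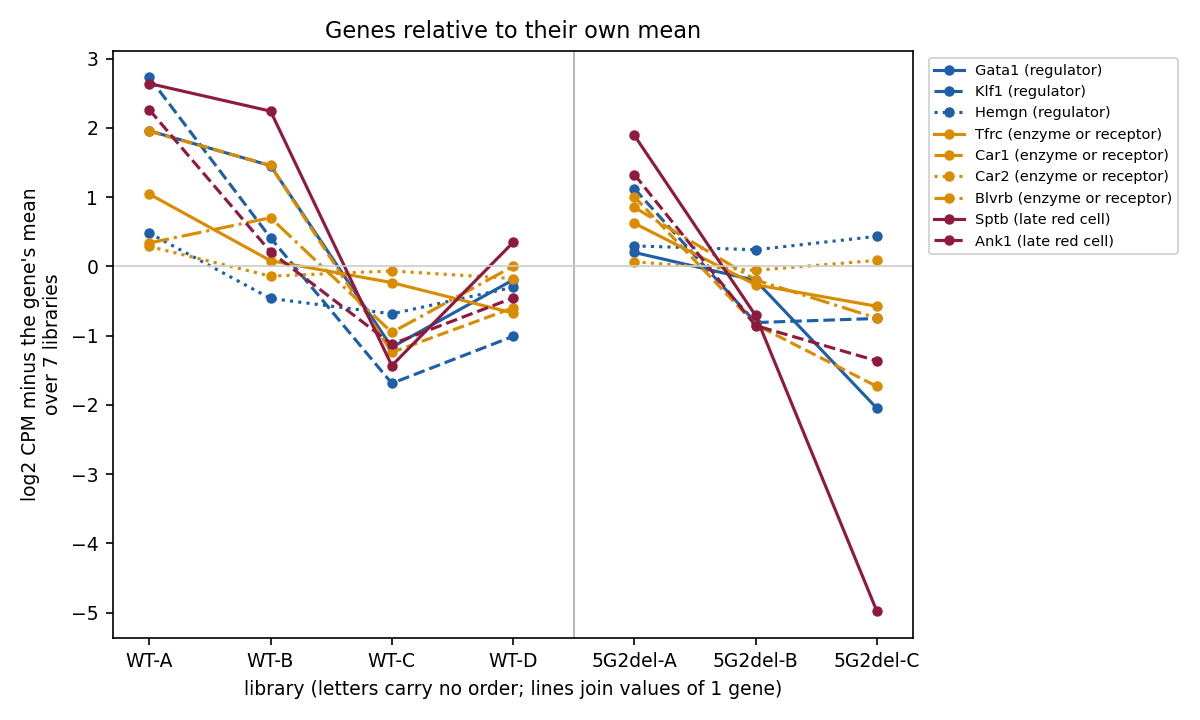
Level of each gene in each library minus the mean of that gene over the 7 libraries (y axis, log2 CPM), with blue for regulators, orange for enzymes and receptor and dark red for late red cell genes. Lines join the values of 1 gene within a group of libraries as a guide to the eye, and the letters follow the order of the columns. Most lines are high at WT-A, WT-B and 5G2del-A and low at WT-C and 5G2del-C, while the dotted line of Car2 stays nearly flat and that of Hemgn is above its mean in WT-A and all 3 5G2del libraries.

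The early regulators were then set against the late red cell genes library by library. The mean of Gata1, Klf1 and Hemgn was 2.84, 2.04 and 1.51 log2 CPM in 5G2del-A, -B and -C and 4.02, 2.76, 1.12 and 1.79 in WT-A to WT-D. The mean of Sptb and Ank1 was 3.45, 1.06 and -1.33 log2 CPM in 5G2del-A, -B and -C and 4.29, 3.07, 0.56 and 1.79 in WT-A to WT-D. Both means were highest in WT-A, and the late mean covered a wider range, 5.63 log2 units against 2.90. This did not hold for each gene. Ank1 ranged over 3.63 log2 units, less than Gata1 (4.01) or Klf1 (4.42), while Sptb ranged over 7.62. Without Hemgn, the mean of Gata1 and Klf1 ranged over 3.77. The receptor and the 3 enzymes, Tfrc, Car1, Car2 and Blvrb, averaged 6.28, 5.31 and 4.90 in 5G2del and 6.55, 6.17, 5.02 and 5.29 in WT. In all 3 groups of genes WT-A was highest, followed by 5G2del-A and WT-B.

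Late minus early was 0.61, -0.98 and -2.84 log2 units in 5G2del-A, -B and -C and 0.27, 0.30, -0.55 and -0.01 in WT-A to WT-D. The WT libraries stayed within 1 log2 unit of each other, while the 5G2del libraries were both the highest and the lowest of the 7. Its mean over 5G2del was -1.07 ± 1.73 (SD, n = 3), and over WT it was 0.003 ± 0.40 (SD, n = 4). It rested on Sptb in 5G2del-C, since Sptb minus Ank1 was -3.73 there and between -0.42 and 1.92 in the other 6 libraries. Without 5G2del-C, the group difference in late minus early was -0.19 in place of -1.07. On the log2(CPM + 1) scale, which gives low counts less weight, it was -0.61, and the difference in the late mean was -0.80 in place of -1.37. With all 6 genes other than the regulators taken as late, these differences were -0.33 and -0.63. When Hemgn was left out of the regulators, late minus early in WT lay between 0.69 and 1.13, and in 5G2del it was 1.53, 0.31 and -1.19 in libraries A, B and C.

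Markers of other cells were read beside these levels. In 5G2del-A, the neutrophil sum of 4640 CPM came with a late mean of 3.45 log2 CPM, and in WT-A 1482 CPM came with 4.29. WT-B, whose neutrophil markers summed to 136.7 CPM with 2 of the 10 at 0 counts, had a late mean of 3.07. Elane, a neutrophil elastase gene, stood at 8.82 log2 CPM in 5G2del-A, 6.95 in WT-A and between -1.17 and 2.29 in the other 5. Leaving out 5G2del-A and WT-A, the group difference was -0.12 log2 units in the early mean, -1.94 in the late mean and -1.82 in late minus early, against -0.30, -1.37 and -1.07 with all 7 libraries. The part of other cells in these levels was not tested.

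The red cell markers (9 of 10 measured) did not follow the same order. They summed to 65.0, 97.1 and 37.5 CPM in 5G2del-A, -B and -C and to 68.3, 225, 75.8 and 91.2 CPM in WT-A to WT-D. WT-B was highest, and WT-A was lowest of its group. At 0 counts were 1 of the 9 in 5G2del-B and 3 in 5G2del-C, Hba-a2 and Slc4a1 among them, and none in the other libraries. Hbb-bt, a beta globin gene, was the highest of the 9 in each library, with 5.10, 6.38 and 5.01 log2 CPM in 5G2del-A, -B and -C and 4.43, 7.43, 5.99 and 6.33 in WT-A to WT-D. Hba-a1, an alpha globin gene, had an order of libraries closer to that of Car1, at 1.29, -0.45 and -1.41 in 5G2del and 1.85, 2.22, -1.47 and -1.24 in WT. Hba-a2, its neighbour copy, had 86.5, 12.1 and 0 counts in 5G2del and 124, 119, 2.90 and 4.02 in WT. Hbb-bs, the other beta globin, stood at 3.41, 3.26 and 1.36 log2 CPM in 5G2del and 2.68, 4.84, 3.12 and 2.66 in WT, highest in WT-B like Hbb-bt. Reads of Hba-a1 and Hba-a2 can be divided between these near-identical copies by the counting, so their separate values are uncertain.

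B lineage markers (6 of 10 measured) summed to 536 and 328 CPM in 5G2del-A and 5G2del-C, to 56.8 CPM in 5G2del-B and to 31.3 to 133 CPM in WT, an order that none of the 9 genes shared. Megakaryocyte and platelet markers (8 of 10 measured) lay between 303 and 377 CPM in 5G2del and between 215 and 405 CPM in WT.

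**Figure D4:**
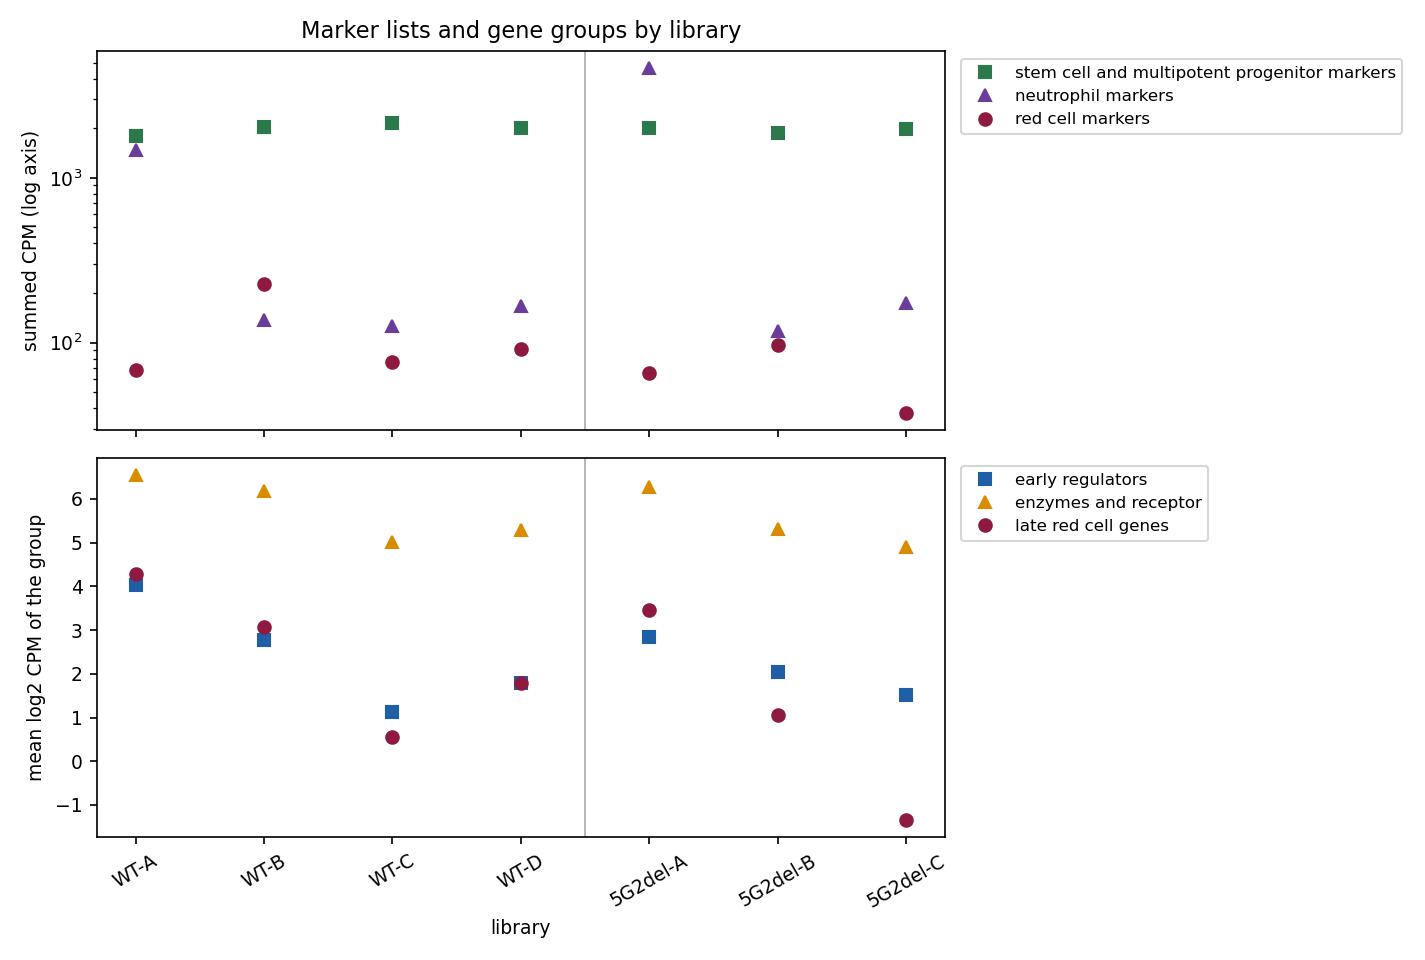
Summed CPM of 3 marker lists (top, log axis) and mean log2 CPM of 3 groups of the 9 genes (bottom) in each of the 7 libraries. Neutrophil markers are high in 5G2del-A and WT-A alone, red cell markers are highest in WT-B, and the late genes are lowest in 5G2del-C at -1.33.

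Levels of different genes were compared per kilobase of merged exon. Averaged over the 7 libraries, the order was Car2 (7.27 log2 CPM per kilobase), Car1 (4.81), Hemgn (3.05), Blvrb (2.89), Tfrc (1.91), Klf1 (0.79), Gata1 (-0.18), Sptb (-1.82) and Ank1 (-1.86). Car2 was above Car1, and Blvrb above Tfrc, in all 7 libraries. Hemgn was above Blvrb in 4 of the 7 and Sptb above Ank1 in 5, with mean differences of 0.16 ± 0.76 and 0.05 ± 1.75 log2 units (SD over 7 libraries), so these neighbours did not differ beyond their spread. The other neighbours kept their order in 6 of 7 libraries. On the mean over libraries Hemgn was thus the most abundant of the regulators per length, although in WT-A it was level with Klf1 (3.53 and 3.52), and the spectrin and ankyrin genes were the scarcest of the 9.

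Other genes of the erythroid programme were read in lists, each with 0 genes under an adjusted p of 0.05 in limma. For comparison, 3.91% of the 16760 genes fell below 0.05 in limma before adjustment, and 5.70% showed groups without overlap. Isolated genes of either kind, named below, thus do not set a list apart from the whole table. Of 22 erythroid transcription factors, all measured, 11 had a higher and 11 a lower mean in 5G2del, and the median log2 fold change was -0.0015. Tal1, which works with GATA1 in a shared complex, stood at 6.20, 6.09 and 5.98 log2 CPM in 5G2del-A, -B and -C and 6.05, 6.48, 5.69 and 6.13 in WT-A to WT-D, a log2 fold change of 0.0024 ± 0.19 (SE). Lmo2, the bridging protein of the same complex, was the 1 gene of the list at an unadjusted p under 0.05. It stood at 8.36, 8.30 and 8.26 log2 CPM in 5G2del and 8.61, 8.65, 8.60 and 8.57 in WT, groups that did not overlap, with a log2 fold change of -0.30 ± 0.13 (SE, limma adjusted p = 0.989). Tal1 and Lmo2 ranged over 0.79 and 0.39 log2 units across libraries in which their partner Gata1 ranged over 4.01.

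Of 9 measured nuclear factors of erythroid cells, Hemgn among them, 4 were higher and 5 lower in 5G2del, with a median of -0.07. In erythropoietin receptor signalling, 3 of 11 measured genes were higher and 8 lower, with a median log2 fold change of -0.18. Epor, the receptor, stood at 2.10, 0.26 and -0.26 log2 CPM in 5G2del-A, -B and -C and at 2.61, 3.22, -1.17 and 0.75 in WT-A to WT-D. Its 3 highest libraries were the same as those of Gata1, and its groups overlapped. Jak2, the kinase that the receptor uses, did not overlap between the groups, at 5.34, 5.10 and 5.37 in 5G2del and 5.91, 5.38, 5.79 and 5.72 in WT (log2 fold change -0.43 ± 0.18 SE, limma adjusted p = 0.989).

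Of 19 measured genes of iron uptake, storage and sensing, 10 were higher and 9 lower, with a median log2 fold change of 0.04, and 1 had an unadjusted p under 0.05. Heme synthesis and its transport had 5 higher and 10 lower of 15 measured, with a median of -0.17. Alas1, the heme enzyme of all cells, stood at 5.66, 3.87 and 4.14 log2 CPM in 5G2del-A, -B and -C and 4.82, 4.03, 3.80 and 3.69 in WT-A to WT-D. Alas1 was picked after its values were seen. Heme breakdown, export and repression, the list that holds Blvrb, had 2 higher and 6 lower of 8 measured. Abcg2, a transporter that exports porphyrins and marks stem cells, did not overlap between groups and had a log2 fold change of -0.44 ± 0.18 (SE, limma adjusted p = 0.989). Of 9 measured carbonic anhydrases, 3 were higher and 6 lower, and Car1 alone had the 3 highest values in WT-A, WT-B and 5G2del-A. Catalase, Cat, was the 1 gene at an unadjusted p under 0.05 among 17 red cell enzymes and late genes (log2 fold change -0.33 ± 0.14 SE, limma adjusted p = 0.989), of which 4 were higher and 13 lower. All 4 measured globin genes were lower, with a median of -0.60 and none at an unadjusted p under 0.05. Of 20 genes of the megakaryocyte and erythroid progenitor stage, 10 were higher and 10 lower, and Itga2b alone, higher in 5G2del, had an unadjusted p under 0.05.

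Beside Lmo2, Jak2, Abcg2 and Cat, the named genes of high level in these lists had the following differences. Among transcription factors, Myb, a factor of progenitors, had a log2 fold change of -0.13 ± 0.16 (SE) and Ikzf1, a lymphoid and erythroid zinc finger factor, -0.11 ± 0.17. Among the nuclear factors, the corepressor Cbfa2t3 had -0.08 ± 0.27, the bromodomain protein Brd3 0.11 ± 0.14 and the histone methyltransferase Kmt5a -0.09 ± 0.18. In erythropoietin signalling, Pim1, a survival kinase, had -0.35 ± 0.25 and Stat5a, the signal transducer, 0.31 ± 0.18. None of these 7 genes had an unadjusted p under 0.05.

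The ferritin genes Fth1 and Ftl1, which store iron, had log2 fold changes of 0.12 ± 0.17 and 0.41 ± 0.25 (SE), and the ferritin receptor Ncoa4 had 0.09 ± 0.18. Fech, which inserts iron into heme, had -0.36 ± 0.22 and Tmem14c, a porphyrin importer, 0.16 ± 0.27. Hmox2, a heme oxygenase, had -0.12 ± 0.19 and Eif2ak1, the heme-regulated kinase, -0.11 ± 0.21. The carbonic anhydrases Car3, Car9 and Car5b had -0.16 ± 0.37, -0.12 ± 0.33 and -0.28 ± 0.44. Gpx1 and Prdx2, antioxidant enzymes rich in red cells, had 0.20 ± 0.16 and 0.15 ± 0.18, and the groups did not overlap for Gpx1.

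Of the progenitor stage genes, Muc13, a mucin, had a log2 fold change of -0.34 ± 0.20 (SE). Ctse, a cathepsin of erythroid cells, stood at 7.72, 3.86 and 4.88 log2 CPM in 5G2del-A, -B and -C and 8.16, 5.64, 4.47 and 5.04 in WT-A to WT-D. Ctse was the highest of its group in WT-A and in 5G2del-A. In the membrane list, the most abundant genes Actb, Cd47 and Tpm3 had log2 fold changes of 0.10 ± 0.19, -0.11 ± 0.17 and 0.05 ± 0.14.

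The list of red cell membrane and skeleton genes held both wide and narrow ranges. Of its 26 genes, all measured, 8 were higher and 18 lower in 5G2del. Their median log2 fold change was -0.20, and 0 had an unadjusted p under 0.05. A range of 3 log2 units or more across the 7 libraries was found for 13 of the 26, against 22.1% of all genes. Among them were Sptb, Ank1, Slc4a1, Epb42, Add2, Dmtn, Rhag, Rhd, Kel, Aqp1 and Ermap, which encode parts of the red cell skeleton and blood group and channel proteins. A range under 1 log2 unit was found for 8, Epb41, Add1, Add3, Gypc, Cd47, Mpp1, Tpm3 and Actb, which many cell types express. These comparisons were not matched for level, and low counts widen a range. The 8 lay at 4.85 log2 CPM or above in every library, whereas Slc4a1 and Dmtn fell to -6.365 in 5G2del-C. WT-A was the highest WT library in 19 of the 26, and 5G2del-A the highest 5G2del library in 17.

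Slc4a1, the anion exchanger that ankyrin holds, had 20, 0 and 0 counts in 5G2del-A, -B and -C and 74, 10, 5 and 7 counts in WT-A to WT-D. In 5G2del-C, Slc4a1 was thus at 0 counts beside the 4 counts of Sptb. Ermap, a red cell membrane adhesion protein picked after its values were seen, stood at 4.55, 1.78 and 0.40 log2 CPM in 5G2del and 5.86, 5.21, 1.33 and 1.91 in WT.

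**Figure D5:**
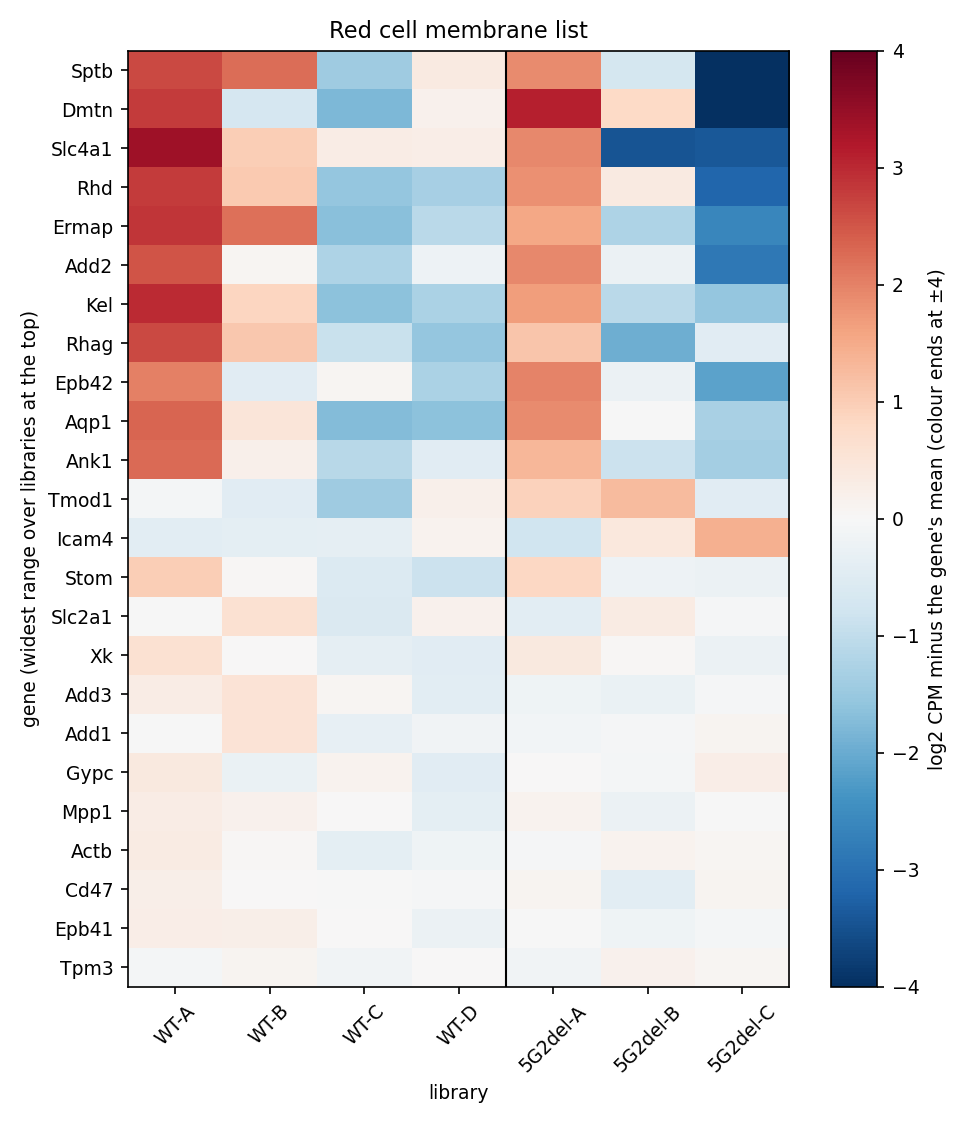
Level of 24 of the 26 genes of the red cell membrane list in each library (columns), as log2 CPM minus the mean of the gene over 7 libraries, ordered by range. The widest genes, at the top, are mostly high (red) in WT-A, WT-B and 5G2del-A and low (blue) in 5G2del-C, and the genes in the lower rows vary by under 1 log2 unit.

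Spectrins and ankyrins of other cells had 5 of 6 genes higher and 1 lower, with a median log2 fold change of 0.53 and none at an unadjusted p under 0.05. Sptbn1, the beta spectrin of most cells, stood at 8.48, 8.24 and 8.41 log2 CPM in 5G2del-A, -B and -C and 8.83, 8.51, 8.63 and 8.56 in WT-A to WT-D. Its groups did not overlap, and the log2 fold change was -0.25 ± 0.15 (SE, limma adjusted p = 0.989). Sptan1, the alpha spectrin of most cells, lay between 6.98 and 7.35 in all 7. Sptbn4, a spectrin of neurons, had 7 to 55 counts and a log2 fold change of 1.22 ± 0.93 (SE). Sptbn1 and Sptan1, at far higher levels than Sptb, were thus level to within 0.59 log2 units while Sptb ranged over 7.62. The list as a whole was not level. Its 6 genes had a median range of 3.635 log2 units, and Sptbn4 ranged over 3.29.

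The genes most like each of the 9 were found by the root mean square difference over the 7 libraries after centring each gene on its mean. The search covered 11202 genes with a mean log2 CPM of at least 0. Genes without a symbol or with a Gm, Rik or LOC symbol were left out. Gata1 was closest to Car1 (0.43 log2 units) and Myo1d (0.47). Klf1 was closest to Ces2g (0.41) and Ank1 (0.43), and Ank1 to Nxpe2 (0.35) and Klf1 (0.43). Car1 was closest to Hba-a1 (0.43) and Gata1 (0.43). Thus 2 pairs inside the set, Gata1 with Car1 and Klf1 with Ank1, each held the other among their 2 nearest of these 11202 genes. Genes of lower mean, such as Slc4a1 and Hba-a2, were not compared.

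Among the genes compared, Sptb had none within 0.5 log2 units, and its nearest were Tmem56 (0.66) and Paqr9 (0.84). By the same measure 2 genes lay within 0.5 of Gata1, 3 of Klf1 and 5 each of Car1 and Ank1. Blvrb had 694 genes within 0.5, with Paqr7 (0.11) nearest, and Tfrc 1062, with Stom (0.21) and Atp7b (0.22) nearest. Hemgn was nearest to Tacc3 (0.15) and Sfxn1 (0.15), and Car2 to Wipf1 (0.04) and Setd5 (0.06), with 4268 and 8230 genes within 0.5. Genes that vary little are all close to each other by this measure. These distances describe 7 libraries that share their preparation and carry no test.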

How the data were processed

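RNA was taken from CD150 neg cells into Trizol, column purified, made into libraries with the Ovation RNA-Seq System V2 kit and read from both ends, per the labels' protocols. The authors deposited 1 table with log2 CPM for each of 7 libraries and 16760 genes, together with their own log2 fold change, a t score and a B score, and the p-value and q-value of each gene. STAR 2.7.9a, RSEM 1.3.0 and limma 3.50.3 are named, with the builds mm10 and GRCh38 and no role, per the submitters' processing notes. The sources used here state no annotation, filter on low genes, scaling or use of strand. RSEM divides reads among similar genes, so values of near-identical or overlapping genes are uncertain.

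The deposited log2 CPM stepped back to expected counts on an offset of 0.5 count, of which 71.3% were whole within 0.01 count. These served for depth and floors, and intervals cover counting error only. The groups were compared by limma-trend (limma 3.58.1, R 4.3.3) over all 7 libraries without covariates, and genes were called at an adjusted p under 0.05 (Benjamini-Hochberg, all genes). The script was checked on simulated data. Alternatives were other weights, scalings, offsets and filters and each library left out. The one without 5G2del-A and WT-A together was chosen after the data were seen.

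The genes and lists were chosen with earlier results of these data known. Beside the 10 genes, the text names from each list up to 3 genes with the highest mean, plus the globins, Slc4a1, Epor and Tal1, the 2 genes most like each gene, and genes with an unadjusted p under 0.05. It names others only where it says that they were picked after their values were seen, or for a check of the libraries. A few genes that this rule names are not reported here. Positions are from GENCODE M21 on mm10, which matched 16748 of 16760 identifiers. Promoters are from RefSeq.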

Additional observations from a re-analysis of the deposited data

Results flagged for a closer look

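Among 65 groups of 4 WT values examined, 1 held a library far from the rest. Cbfa2t3, a nuclear corepressor of erythroid and stem cells, stood at 6.08 log2 CPM in WT-D, against 6.97 to 7.13 in the other WT libraries. The gap was 0.843 of the whole range, above the 95% critical value of Dixon's test for 4 samples. Chance gives about 1 such case in 20 groups. The 65 did not cover every gene and marker sum named above, and other WT libraries stood apart too. Plekhg3 was at 0.31 log2 CPM in WT-B, against 2.73 to 3.10 in the other WT libraries. Neutrophil markers summed to 1482 CPM in WT-A, against 125.4 to 166.3 CPM in the other WT libraries. Red cell markers summed to 225 CPM in WT-B, against 68.3 to 91.2 CPM.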

How the results depend on the processing

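No paired analysis was possible because the library columns carry no replicate numbers. Their serial numbers follow the same sequence of genotypes as the samples, but a match by order alone was not used to assign numbers. Over 15 alternatives, 0 of 135 log2 fold changes of the 9 genes had an adjusted p under 0.05 (lowest limma adjusted p = 0.752), and 14 turned in sign; in none of these was the cause tested. The count of genes called over the whole table was 1 (Sfrp5) without a trend in the prior variance, and it ran from 0 to 1 with single libraries left out (Thbs1 without 5G2del-C). With single libraries left out, the median of the 9 ran from -0.89 to 0.16, Klf1 from -0.89 to 0.62, Tfrc from -0.47 to 0.20, Blvrb from -0.49 to 0.31, Ank1 from -1.33 to 0.16, Gata1 from -1.76 to -0.51, Sptb from -3.79 to -0.36 and the late mean from -2.56 to -0.17. The extremes of the median came without 5G2del-A (-0.89) and without WT-A (0.16); without WT-C it was -0.86. Klf1 was 0.049 and Blvrb 0.14 with array quality weights, and Car2 was -0.055 with quantile normalization. Gata1, Hemgn, Car1 and Sptb kept their sign in every alternative, and Gata1 had an unadjusted p under 0.05 without WT-C (limma adjusted p = 0.995). Other scalings moved the median over all genes from 0.03 to 0.0081 and -0.0044. Low counts limit the lowest values of Sptb, Gata1, Klf1 and Ank1.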
